A study of Mus musculus with 6 samples.

Results

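Rab GTPases are small switch proteins that each mark a set of membranes inside the cell, and 51 genes encoding them were described here from RNA-seq of 6 libraries of cultured mouse kidney cells. Members were the rows of the deposited expression table whose symbol is Rab, a number and at most 2 further letters or digits. The table listed 12803 genes, of which 55 had such a symbol, and 4 of those were left out. These were Rab3ip, which encodes an exchange factor for Rab8, Rab5if, which encodes no Rab, and the opposite-strand transcripts Rab10os and Rab26os. The 8 further Rab genes Rab3c, Rab9b, Rab26, Rab33a, Rab37, Rab39, Rab42 and Rab44 were not analysed here.

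The study compared 3 libraries of a podocyte-derived cell line with the genotype Myosin 1e KO (KO below) with 3 libraries of the Mundel murine podocyte line with the genotype WT. Podocytes are the epithelial cells that cover the capillaries of the kidney filter, and the Mundel line is a conditionally immortalised culture model of them. The study's design text calls the libraries biological replicates and mentions Myosin 1e heterozygous cells as well, which were not analysed here. Since both genotypes come as 1 line each, the knockout and every other difference between the lines cannot be told apart, and the p-values measure the spread between libraries of a line. The labels give no passage, temperature or day of culture and do not say whether the KO line is a clone.

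A Rab switches between a GTP-bound form, which recruits effector proteins such as tethers and motors to a membrane, and a GDP-bound form, which is extracted to the cytosol. Guanine nucleotide exchange factors turn Rabs on, GTPase-activating proteins turn them off, and a prenyl anchor added by geranylgeranyl transferase II holds them on membranes. Most Rabs serve transport steps that every cell carries out. A smaller number, such as Rab25, Rab17 and Rab27a, serve recycling to and secretion at the apical surface of polarised epithelia or the release of granules. The members were divided by these roles into 15 apical and epithelial Rabs, 15 housekeeping Rabs, 4 neuronal and secretory Rabs, 4 Rabs of lysosome-related organelles and 13 others.

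Sequence upstream of 5 Rab genes is printed because these are the apical and epithelial members whose levels differed most between the lines. Windows came from the RefSeq promoter table for GRCm38.p6, which held 55 windows for 43 of the 51 members, and each window covered the 250 bases before a transcript start. Bases that GENCODE places in an exon were trimmed. The windows are Rab25 chr3:88548301-88548529 on the minus strand, Rab17 chr1:90967668-90967917 on the minus strand, Rab27a chr9:73044560-73044809 on the plus strand and Rab3b chr4:108878820-108879062 on the plus strand. For Rab19 the 26 bases around the match, chr6:39381288-39381313 on the plus strand, are printed, since GENCODE places them in the gene's first exon. The Rab17 window lies inside the gene's span and off its exons. Capitals mark the letters CAGGTG on either strand (an E-box of the kind that the repressor Zeb1 binds), and in Rab3b the letters TATAAA.
Rab25: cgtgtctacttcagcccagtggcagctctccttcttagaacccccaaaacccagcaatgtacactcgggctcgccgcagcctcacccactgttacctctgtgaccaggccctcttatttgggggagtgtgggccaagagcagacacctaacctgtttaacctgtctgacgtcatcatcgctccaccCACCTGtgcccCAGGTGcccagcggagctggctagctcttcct
Rab17: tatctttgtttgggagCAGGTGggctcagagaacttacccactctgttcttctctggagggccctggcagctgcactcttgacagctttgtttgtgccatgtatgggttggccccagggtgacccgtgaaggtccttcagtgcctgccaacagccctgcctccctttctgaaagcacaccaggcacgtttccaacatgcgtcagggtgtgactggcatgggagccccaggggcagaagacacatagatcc
Rab19: gccagcacctCACCTGgggcttcagg
Rab27a: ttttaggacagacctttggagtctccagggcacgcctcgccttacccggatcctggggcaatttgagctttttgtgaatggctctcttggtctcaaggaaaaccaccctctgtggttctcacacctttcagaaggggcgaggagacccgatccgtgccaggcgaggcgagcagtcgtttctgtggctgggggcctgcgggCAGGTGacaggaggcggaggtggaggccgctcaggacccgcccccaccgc
Rab3b: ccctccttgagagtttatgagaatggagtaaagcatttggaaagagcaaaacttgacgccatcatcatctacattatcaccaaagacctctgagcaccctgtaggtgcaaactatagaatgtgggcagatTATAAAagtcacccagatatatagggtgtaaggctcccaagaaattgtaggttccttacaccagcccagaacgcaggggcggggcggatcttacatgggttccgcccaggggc

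The motifs were chosen with these promoters in view, so their counts are a description. The letters CAGGTG stood in 9 of the 55 member windows, 16.4%, beside 17.2% of all 32851 promoter windows in the table. They were found in Rab25, Rab17, Rab19, Rab27a and Rab15, which were 5 of the 6 genes with a window among the Rabs that were higher in KO by at least 2-fold (5 of their 10 windows), and in Rab23, Rab3a, Rab5c and Rab9. None of the 4 genes with a window among the Rabs lower by at least 2-fold had these letters in their 5 windows. Rab27b, Rab38 and Rab7b, which were also lower by at least 2-fold, had no window. The letters AACCNGTT, which Grainyhead factors bind, stood in 1.79% of all windows and among the members in Rab25 alone. The letters TATAAA stood in 12.4% of all windows and in Rab3b, Rab7 and Rab39b. Matches of the 3 motifs did not overlap in the printed windows. RNA of Zeb1 itself was at 1.71 ± 0.16 counts-per-million (CPM) in KO and 102 ± 0.47 CPM in WT (SD, n = 3), and RNA of Grhl2, a Grainyhead factor of epithelia, was at 74.3 ± 8.1 and 0.221 ± 0.063 CPM. Neither value bears on binding, and a match shows only that the letters are present.

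The libraries held between 35447096 and 42106461 reads assigned to listed genes, so that 3 reads were worth 0.0703 to 0.0856 CPM. Levels are given as CPM without an offset, and fold changes as log2 differences, KO minus WT, on the deposited scale, which adds a prior of about 1 read and understates the folds of genes near 0. A difference was called where limma's adjusted p (Benjamini-Hochberg over all 12616 genes tested) was under 0.05. Myo1e, the targeted gene, was at 18.9, 16.3 and 16.8 CPM in KO libraries 1 to 3 and at 184, 180 and 168 CPM in WT libraries 1 to 3, a log2 difference of -3.35 (SE 0.09, limma adjusted p = 2.1e-08). All 12 simple-epithelium markers were higher in KO, with sums of 8197 to 8922 CPM against 5.04 to 8.03 CPM in WT, where Cldn3, Cldn7 and Esrp1 had 0 reads. Of the 12, 11 passed the filter on low values (above 0 log2 CPM in 3 or more libraries) through KO only, so they had to differ. Of the 8 mesenchyme markers tested 7 were lower in KO, and 1, Fn1, was higher (sums 7744 to 13280 CPM in KO, mostly Fn1, and 6877 to 7269 CPM in WT). Of the 8 podocyte markers tested 2 were higher and 5 lower (sums 623 to 831 CPM in KO and 1215 to 1428 CPM in WT). Of 10 leukocyte markers 2 were tested and not called, and of 8 endothelial markers 2 were tested and 1 was lower. Among the tested markers, 1 of mesenchyme and 2 of podocytes passed the filter through 1 group only. Beside these counts, 34.3% of all tested genes were higher in KO and 33.8% were lower. The podocyte label rests on few defining genes in either line, since Nphs1, Ptpro and Tcf21 were not analysed here, and Wt1 was at 0.125 ± 0.10 CPM in KO and 4.40 ± 2.0 CPM in WT. The part of these markers in the Rab results was not tested. In RNA from whole cultures, fewer cells that express a gene and less RNA per cell cannot be told apart.

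All 51 members passed the filter on low values, and 7 of them passed through 1 group only (Rab25, Rab19, Rab17 and Rab15 through KO, and Rab7b, Rab3b and Rab40b through WT). Among the 51 members 19 were higher in KO, 15 were lower and 17 were not called. The share called, 66.7%, lay beside 68.1% over all tested genes (34.3% up and 33.8% down in KO). The groups did not overlap for 37 members, where 73.5% of all genes did not overlap. The members called with at least a 2-fold difference were 7 higher and 7 lower, 14 of 51, beside 27.9% of all genes (11.7% higher and 16.2% lower). As a family the Rabs thus moved about as often as other genes, with a median log2 difference of -0.05 (all genes 0.01) and a median size of 0.47 (all genes 0.51).

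Of the 15 apical and epithelial Rabs 6 were higher in KO, 5 were lower and 4 were not called, and 7 of the 11 calls were at least 2-fold. Of the 15 housekeeping Rabs 8 were higher, 1 was lower and 6 were not called, and none of the 9 calls reached 2-fold. The classes were thus called in 73.3% and 60%, beside 68.1% of all genes (34.3% higher and 33.8% lower). Over all genes 27.9% were called with at least a 2-fold difference. The extremes of the apical class, Rab25, Rab19, Rab17 and Rab3b, are the 4 members of it that passed the filter only through the group where they are high, so they had to differ. No housekeeping member passed in that way. Among the other 11 apical and epithelial Rabs 3 were higher, 4 were lower and 4 were not called, and 3 of the calls were at least 2-fold (Rab27a, Rab27b and Rab13). Their log2 differences ranged from -1.39 to 2.21 with a median of -0.12 and a median size of 0.47. The housekeeping Rabs ranged from -0.56 to 0.73 with a median of 0.31 and a median size of 0.36. No test of the difference between the classes was made. A division of the apical class made after the values were seen gave 8 tissue-restricted members (Rab3b, Rab3d, Rab17, Rab19, Rab20, Rab25, Rab27a and Rab27b), which include these 4, with 5 higher and 2 lower, and 7 widely expressed members with 1 higher and 3 lower. These 2 parts were called in 87.5% and 57.1%, beside 68.1% of all genes.

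**Figure D1:**
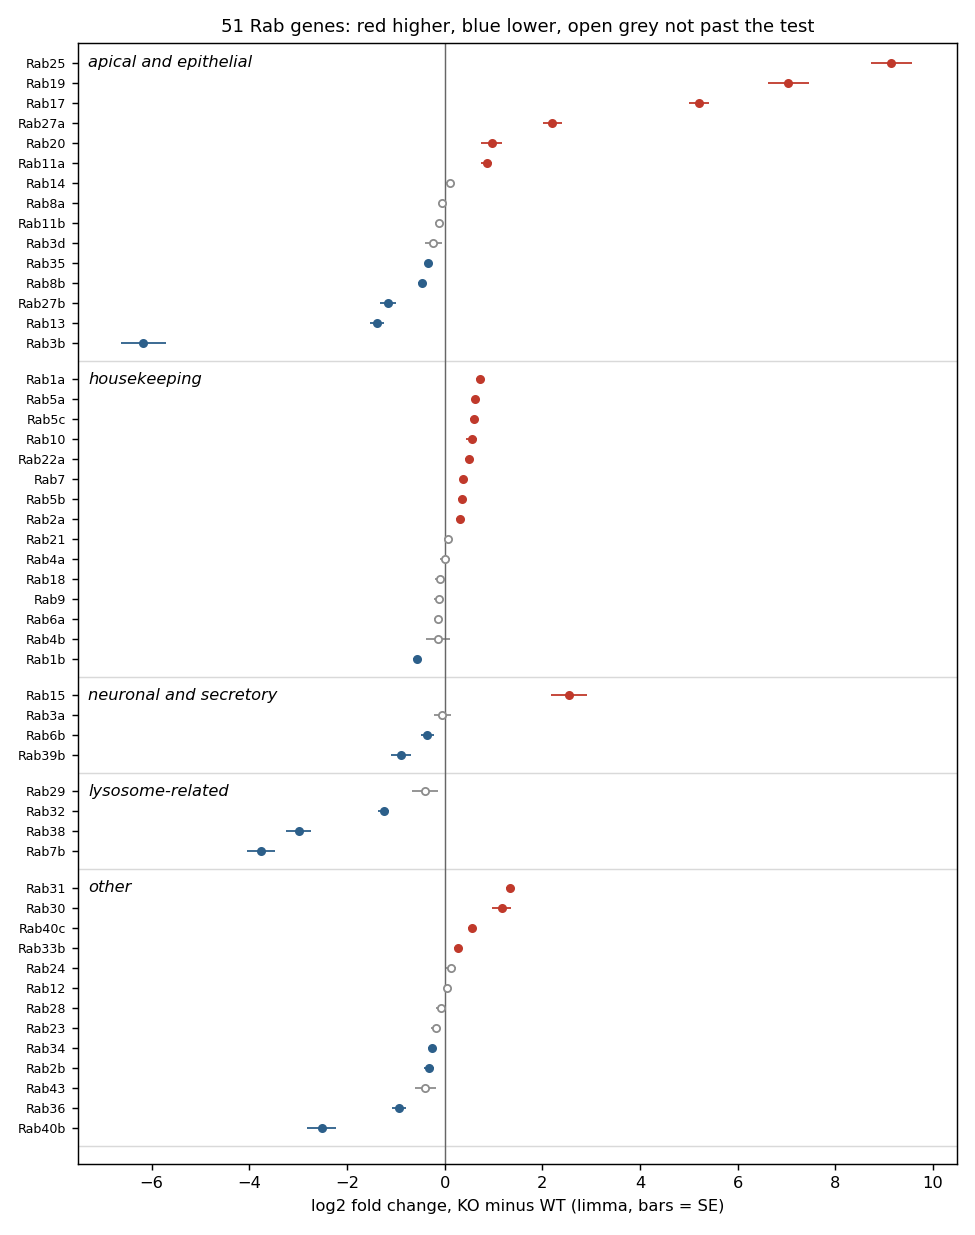
Log2 difference (KO minus WT, horizontal axis) of the 51 Rab genes by class, with bars for the standard error of limma's fit; filled red points were called higher, filled blue points lower, and open grey points were not called. The apical and epithelial genes spread from -6.17 to 9.15 and the housekeeping genes stay between -0.56 and 0.73. Both ends of the apical range, Rab3b and Rab25, passed the filter only through the group where they are high. The 11 apical genes that did not pass in that way lie between -1.39 and 2.21.

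Rab25 is a Rab11-group GTPase of epithelia that works at the apical recycling endosome (ENSMUSG00000008601, chr3:88542029-88548300, minus strand, GRCm38). It was at 89.5, 82.5 and 91.7 CPM in KO libraries 1 to 3 and at 0.0468, 0.155 and 0.254 CPM in WT libraries 1 to 3. Every KO library was far above every WT library, with 9985 reads in KO and 17 in WT. The means were 87.9 ± 4.8 and 0.152 ± 0.10 CPM (SD, n = 3), and the log2 difference was 9.15 (SE 0.43, limma adjusted p = 3.9e-07). The WT mean rests on few reads and was 0.101 CPM without WT library 3. Per kb of exon Rab25 stood at 52.5 CPM in KO, rank 8 of the 51 Rabs, and at 0.091 CPM in WT, rank 49.

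Rab17, an epithelial GTPase of polarised recycling and transcytosis (ENSMUSG00000026304, chr1:90958133-90969661, minus strand), was at 9.35, 8.47 and 9.58 CPM in KO and at 0.187, 0.259 and 0.226 CPM in WT. The groups were far apart and tight, with 1038 reads against 26. The log2 difference was 5.20 (SE 0.21, limma adjusted p = 1.7e-07). Rab19, a GTPase linked to the apical surface and to cilium formation (ENSMUSG00000029923, chr6:39381175-39390380, plus strand), was at 5.39, 6.48 and 6.85 CPM in KO and at 0.0234, 0 and 0.0565 CPM in WT. Its WT level is 3 reads in all, so the ratio of pooled reads at equal library size, 242, has an exact 95% interval of 82.3 to 1174 that covers counting error only. The log2 difference was 7.04 (SE 0.42, limma adjusted p = 1.7e-06). Without WT library 3 the WT mean of Rab19 fell from 0.0267 to 0.0117 CPM.

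The Rab27 pair docks secretory vesicles and multivesicular bodies at the plasma membrane, and its 2 genes changed in opposite directions. Rab27a (ENSMUSG00000032202, chr9:73044854-73097629, plus strand) was at 8.74, 8.33 and 9.02 CPM in KO and at 2.46, 1.66 and 1.58 CPM in WT. Rab27b (ENSMUSG00000024511, chr18:69979131-70141605, minus strand) was at 5.76, 4.79 and 4.54 CPM in KO and at 13.5, 10.7 and 9.81 CPM in WT. Neither gene's groups overlapped. The log2 difference was 2.21 for Rab27a (SE 0.20, limma adjusted p = 2.0e-05) and -1.16 for Rab27b (SE 0.17, limma adjusted p = 0.00033). Per kb of exon Rab27a made up 82.7 ± 1.9% of the pair in KO and 31.3 ± 1.8% in WT (SD, n = 3).

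Rab3b, a GTPase of regulated exocytosis found in polarised epithelia (ENSMUSG00000003411, chr4:108879063-108943324, plus strand), was the apical member with the deepest fall. It was at 0.0738, 0.143 and 0.0265 CPM in KO and at 10.7, 5.07 and 6.05 CPM in WT, 9 reads against 866. The lowest WT library was far above the highest KO library. The log2 difference was -6.17 (SE 0.46, limma adjusted p = 6.7e-06), and without KO library 2 the KO mean was 0.0502 CPM in place of 0.0810. An opposite-strand transcript covers 9.0% of its exon bases. Its paralogues Rab3a of synaptic vesicles and Rab3d of apical granules were not called, at 19.8 ± 3.0 against 20.7 ± 4.7 CPM and 39.5 ± 6.0 against 47.0 ± 12 CPM. Rab3b therefore went from 8.98 ± 1.8% of the Rab3 group per kb in WT to 0.136 ± 0.11% in KO.

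Rab13, a GTPase of traffic to tight junctions (ENSMUSG00000027935, chr3:90213695-90226385, plus strand), was at 13.7, 12.1 and 17.2 CPM in KO and at 41.9, 35.7 and 34.3 CPM in WT. All KO libraries were below all WT libraries, with a log2 difference of -1.39 (SE 0.15, limma adjusted p = 4.9e-05). It fell in the line that carried the epithelial markers. Rab20, a GTPase of apical endocytic structures in kidney epithelium and of phagosomes, was at 25.2, 31.6 and 32.8 CPM in KO and at 10.6, 17.0 and 19.5 CPM in WT. Its groups did not overlap although both were wide, and the log2 difference was 0.96 (SE 0.22, limma adjusted p = 0.0044). An opposite-strand transcript, E230013L22Rik, covers 25.6% of the exon bases of Rab20.

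Rab11a of the recycling endosome rose from 99.7 ± 11 to 182 ± 21 CPM (SD, n = 3; log2 difference 0.86, limma adjusted p = 0.00018), and its groups did not overlap. Rab8b of exocytic carriers and Rab35 of fast recycling fell, from 34.2 ± 1.2 to 24.7 ± 1.1 CPM and from 96.5 ± 3.9 to 76.6 ± 3.5 CPM (log2 differences -0.47 and -0.33, limma adjusted p = 0.0012 and 0.0037). Rab8a, Rab11b and Rab14, which serve exocytosis, recycling and the step between early endosome and Golgi, were not called, with log2 differences of -0.05, -0.12 and 0.12. Rab14 was at 195 to 228 CPM across all 6 libraries. The apical class as a whole was at 248 ± 11 CPM per kb in KO and 171 ± 6.0 in WT, 20.4% and 16.9% of the family. Without Rab25 the class was at 16.8 ± 0.59% of the family in KO and 16.9 ± 0.025% in WT, so the difference in share rested on that gene. 

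**Figure D2:**
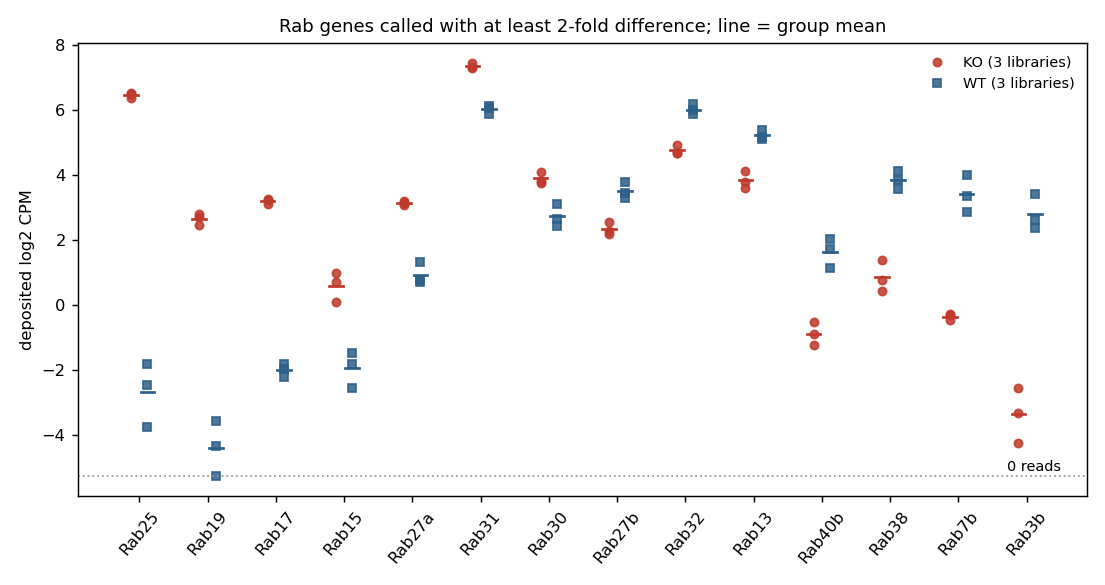
Deposited log2 CPM (vertical axis) in each library of the 14 Rab genes called with at least a 2-fold difference; red circles are the 3 KO libraries, blue squares the 3 WT libraries, short lines the group means, and the dotted line the value of 0 reads. The groups of each gene are separate, 1 WT library of Rab19 lies on the line of 0 reads, and Rab25, Rab17 and Rab27a are tight in KO.

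The 8 housekeeping Rabs that rose did so by less than 2-fold. Rab1a, which acts between endoplasmic reticulum and Golgi (ENSMUSG00000020149, chr11:20201432-20226856, plus strand), was at 361, 329 and 322 CPM in KO and at 206, 195 and 210 CPM in WT. The 3 KO libraries were all higher, by a log2 difference of 0.73 (SE 0.08, limma adjusted p = 5.6e-05). Its paralogue Rab1b, with the same role, was the housekeeping member that fell, at 154, 147 and 156 CPM in KO and 242, 226 and 207 CPM in WT (log2 difference -0.56, SE 0.08, limma adjusted p = 0.00033). Rab1a made up 57.0 ± 1.6% of the pair per kb in KO and 35.2 ± 2.2% in WT. The pair's summed level was 156 ± 6.2 and 153 ± 7.4 CPM per kb, a difference smaller than the spread within either line.

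Rab5 proteins drive fusion of early endosomes, and all 3 of their genes rose. Rab5a was at 101, 103 and 107 CPM in KO and at 63.4, 67.5 and 70.7 CPM in WT (log2 difference 0.62, SE 0.07, limma adjusted p = 0.00010). Rab5c was at 280, 256 and 287 CPM in KO and at 186, 176 and 181 CPM in WT (log2 difference 0.60, SE 0.08, limma adjusted p = 0.00015). Neither gene's groups overlapped. Rab5b rose by less, from 74.2 ± 5.9 to 95.1 ± 1.5 CPM (log2 difference 0.36). The group's sum per kb was 167 ± 7.9 in KO and 113 ± 2.9 in WT. Rab5c held 74.7 ± 0.91% of that sum in KO and 73.1 ± 0.34% in WT.

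Rab10, which serves basolateral and Golgi traffic, was at 352, 302 and 264 CPM in KO and at 217, 200 and 206 CPM in WT (log2 difference 0.55, SE 0.11, limma adjusted p = 0.0021). Rab7 of late endosomes and lysosomes was at 292, 285 and 291 CPM in KO and at 216, 211 and 240 CPM in WT (log2 difference 0.38, SE 0.08, limma adjusted p = 0.0024). Both genes, with Rab1a, had the most reads of the class, and neither gene's groups overlapped. Rab22a of early and recycling endosomes and Rab2a between endoplasmic reticulum and Golgi rose too, with log2 differences of 0.50 and 0.31. Rab4a, Rab4b, Rab6a, Rab9, Rab18 and Rab21, which act in fast recycling, Golgi transport, late endosomes, lipid droplets and early endosomes, were not called, with log2 differences from -0.14 to 0.07. The class summed to 762 ± 32 CPM per kb in KO and 635 ± 21 in WT. Its share of the family was 62.9% in KO and 62.7% in WT.

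Shares within groups of close paralogues moved where the levels of single members did. In the Rab11 group Rab25 rose from 0.202 ± 0.14% of the per-kb sum in WT to 42.0 ± 1.2% in KO, while Rab11a went from 71.9 ± 1.5% to 48.4 ± 2.2% and Rab11b from 27.9 ± 1.4% to 9.55 ± 1.2%. The sum of that group was 125 ± 9.4 CPM per kb in KO and 46.3 ± 3.9 in WT. In the Rab8 group Rab10 went from 54.1 ± 0.58% to 69.8 ± 4.3% and Rab13 from 14.8 ± 0.94% to 5.06 ± 1.2%. The sum of the Rab22 group, formed by Rab22a and Rab31, was 65.0 ± 3.9 CPM per kb in KO and 32.7 ± 1.7 in WT, with Rab31 at 65.7 ± 1.2% and 51.8 ± 1.6%. The Rab4 and Rab6 pairs kept their make-up within the spread between libraries, with Rab4a at 96.8 ± 0.18% and 96.4 ± 0.60% and Rab6a at 82.5 ± 2.0% and 80.1 ± 2.8%.

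**Figure D3:**
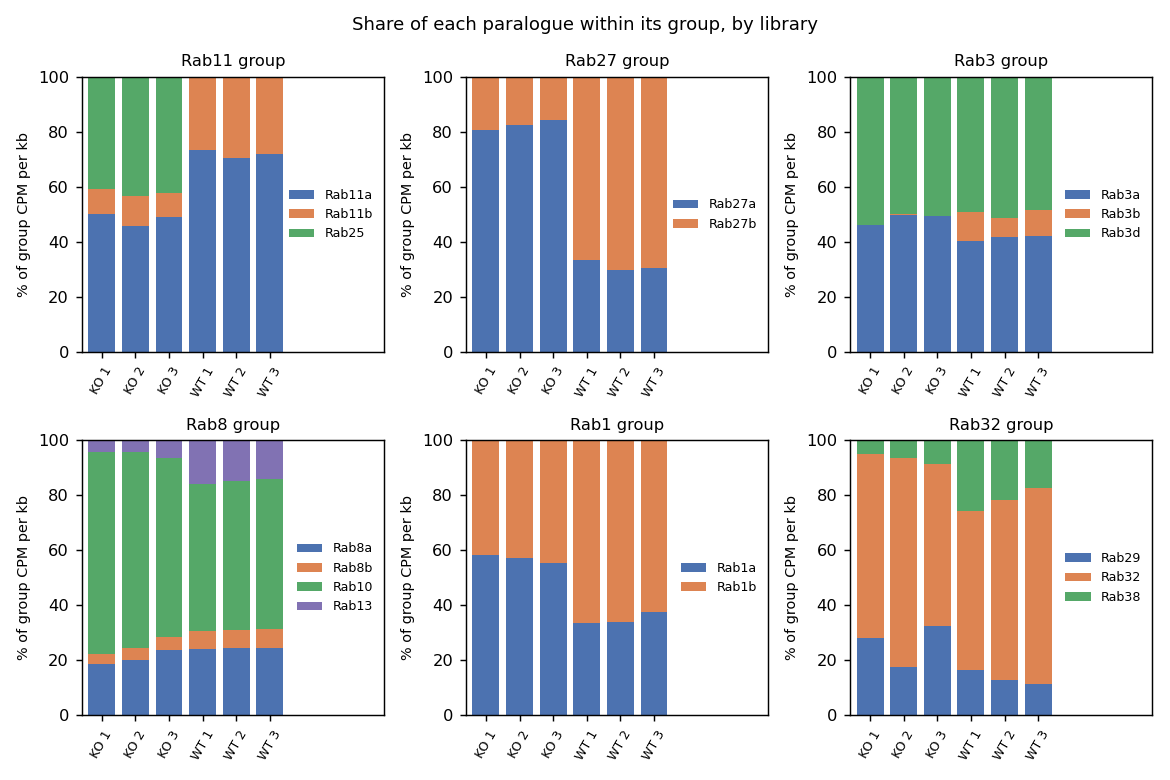
Share (percent, vertical axis) of each paralogue in the summed CPM per kb of its group, in each of the 6 libraries, for 6 Rab groups. Rab25 takes 40.8% to 43.1% of the Rab11 group in KO and at most 0.334% in WT, and the larger member of the Rab27 and Rab1 pairs differs between the lines.

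Of the 4 Rabs of lysosome-related organelles 3 were lower in KO, all by at least 2-fold. Over all genes 33.8% were lower, and 16.2% were lower by at least 2-fold. Rab7b passed the filter through WT only, so it had to differ. Rab32 and Rab38, which sort cargo to melanosomes and related organelles, and Rab7b, which acts between late endosomes and the Golgi, fell by at least 2-fold, and Rab29, which recruits the kinase LRRK2 to lysosomes, was not called (6.65 ± 2.2 against 8.56 ± 1.8 CPM). Rab7b (ENSMUSG00000052688, chr1:131688695-131715439, plus strand) was at 0.787, 0.770 and 0.690 CPM in KO and at 15.9, 10.2 and 7.15 CPM in WT (log2 difference -3.77, SE 0.28, limma adjusted p = 6.4e-06). Rab38 (ENSMUSG00000030559, chr7:88430273-88491572, plus strand) was at 1.30, 1.68 and 2.55 CPM in KO and at 17.4, 14.1 and 11.8 CPM in WT (log2 difference -2.99, SE 0.26, limma adjusted p = 1.6e-05). The groups of both genes were well apart. Rab32 fell from 64.5 ± 7.4 to 27.0 ± 2.9 CPM (log2 difference -1.25, SE 0.11, limma adjusted p = 2.2e-05). The class went from 45.0 ± 1.5 to 17.4 ± 1.1 CPM per kb, 4.44% and 1.44% of the family. Of 8 melanocyte markers 2 were tested, Pmel was not called (0.967 ± 0.10 against 1.22 ± 0.26 CPM), Mitf was higher in KO (log2 difference 0.56) and the other 6 were not analysed here.

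Among neuronal and secretory Rabs 1 was higher and 2 were lower, 75.0% called beside 68.1% of all genes. Rab15, an endosomal GTPase enriched in nerve cells (ENSMUSG00000021062, chr12:76797960-76822908, minus strand), was at 1.92, 1.60 and 1.03 CPM in KO and at 0.328, 0.259 and 0.141 CPM in WT. The groups did not overlap but both levels were low, and the log2 difference was 2.54 (SE 0.37, limma adjusted p = 0.00038). Rab15 passed the filter through KO only, so it had to differ. Rab39b, another GTPase enriched in nerve cells, fell from 3.59 ± 0.64 to 1.91 ± 0.26 CPM (log2 difference -0.90), and an opposite-strand transcript covers 18.6% of its exon bases. Rab6b, the brain-enriched paralogue of Rab6a, was called lower with overlapping groups (49.4 ± 5.1 against 63.6 ± 11 CPM, log2 difference -0.36, limma adjusted p = 0.041), and that call was lost in 5 alternatives, among them the fits without KO library 1, KO library 2 or WT library 2. Of 10 neuron and endocrine markers 3 were tested and 1, Elavl4, was higher in KO (1.61 ± 0.37 against 0.0337 ± 0.011 CPM). Elavl4 passed the filter through KO only, so it had to differ. The summed level of the 3 was 12.4 to 17.4 CPM in KO and 12.1 to 13.8 CPM in WT, and its part in the Rab15 result was not tested.

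Of the 13 other Rabs 4 were higher, 4 were lower and 5 were not called, 61.5% called beside 68.1% of all genes. Rab31, a Rab5-group GTPase between Golgi and endosomes, was at 172, 161 and 155 CPM in KO and at 69.2, 58.8 and 66.0 CPM in WT, with no overlap (log2 difference 1.33, SE 0.09, limma adjusted p = 2.5e-06). Rab30 of the Golgi rose from 6.70 ± 1.7 to 14.8 ± 1.9 CPM (log2 difference 1.16). Rab40b and Rab40c carry a SOCS box, which binds a cullin ubiquitin ligase, and moved in opposite directions. Rab40b (ENSMUSG00000025170, chr11:121356125-121388251, minus strand) was at 0.394, 0.514 and 0.663 CPM in KO and at 4.05, 3.26 and 2.18 CPM in WT (log2 difference -2.52, SE 0.30, limma adjusted p = 0.00011). It passed the filter through WT only, so it had to differ. Rab40c rose from 36.5 ± 2.0 to 53.5 ± 2.3 CPM (log2 difference 0.55) and held 88.4 ± 2.6% of the pair per kb in WT and 98.5 ± 0.42% in KO.

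Rab36 and its paralogue Rab34, a GTPase of macropinosomes and the cilium, were lower in KO, with log2 differences of -0.93 and -0.26. Rab33b, a Golgi GTPase linked to autophagy, was higher (0.27, limma adjusted p = 0.018), and Rab2b, the paralogue of Rab2a, was lower (-0.32, limma adjusted p = 0.024). Rab33b lost its call without KO library 1 (adjusted p = 0.055) or WT library 2 (0.084), and Rab2b lost it in 4 of the 6 fits without 1 library, with adjusted p from 0.057 to 0.068 (KO library 2 or 3, WT library 1 or 2). Opposite-strand transcripts cover 64.0% of the exon bases of Rab2b and 18.7% of those of Rab33b, and the strand setting of the counting is not given in the sources used here. Rab12, Rab23, Rab24, Rab28 and Rab43, which serve recycling, Hedgehog signalling, autophagy, the cilium and the Golgi, were not called, with log2 differences from -0.39 to 0.13. Opposite-strand exons cover 62.4% of the exon bases of Rab24. A same-strand gene, Gm45140, overlaps 4164 of the 5526 exon bases of Rab43, and its part in the level of Rab43 was not tested.

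Of 15 genes that load, escort and recycle Rabs 9 were higher, 2 were lower and 4 were not called, and Rabggta alone reached 2-fold. The share called, 73.3%, was near the 68.1% of all genes, with a median log2 difference of 0.27 beside 0.01 for all genes. The catalytic pair of geranylgeranyl transferase II moved in opposite directions. Rabggta, the alpha subunit, was at 36.0, 37.2 and 41.0 CPM in KO and at 14.5, 14.5 and 14.4 CPM in WT (log2 difference 1.39, limma adjusted p = 3.0e-06), whereas Rabggtb, the beta subunit, was at 48.7, 53.1 and 57.6 CPM in KO and at 67.1, 67.4 and 67.8 CPM in WT (log2 difference -0.35, limma adjusted p = 0.0055). The groups of both subunits were separate. Chml, an escort protein for newly made Rabs, rose from 13.2 ± 1.4 to 24.2 ± 2.5 CPM. Yipf6, a Rab-interacting membrane protein of the Golgi, rose from 38.6 ± 0.30 to 60.8 ± 7.0 CPM. Arl6ip5, a prenylated-Rab acceptor family protein, fell from 137 ± 17 to 84.0 ± 8.3 CPM.

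Exchange factors were called in both directions, 14 higher, 13 lower and 12 not called of 39 tested (median 0.11). Madd, an exchange factor for Rab3 and Rab27 proteins, rose from 17.0 ± 1.3 to 41.1 ± 1.6 CPM. Within the DENN family Dennd2d rose from 5.09 ± 1.8 to 17.5 ± 0.39 CPM, while Dennd2a fell from 98.9 ± 2.5 to 5.76 ± 0.87 CPM and Dennd5b from 13.2 ± 2.5 to 1.38 ± 0.57 CPM. Rin3, an exchange factor for Rab5-group proteins, fell from 95.1 ± 8.3 to 44.7 ± 6.3 CPM. The largest of these differences was that of Dennd2a, with a log2 difference of -4.11 (limma adjusted p = 3.9e-08).

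Of 37 GTPase-activating proteins tested 14 were higher, 9 were lower and 14 were not called (median 0.13). Tbc1d2, which acts on Rab7, rose from 10.8 ± 1.4 to 65.8 ± 7.1 CPM (log2 difference 2.61, limma adjusted p = 4.9e-07). Sgsm1 rose from 3.19 ± 0.59 to 16.7 ± 0.60 CPM and Tbc1d9 from 46.9 ± 3.0 to 171 ± 30 CPM. Tbc1d10a, which acts on Rab27a and Rab35, fell from 126 ± 24 to 47.6 ± 1.7 CPM (log2 difference -1.39, limma adjusted p = 2.9e-05). Tbc1d16, which acts on Rab4a, fell from 30.9 ± 3.8 to 9.40 ± 2.0 CPM, and Grtp1 from 5.82 ± 0.81 to 2.95 ± 0.42 CPM. The members of both lists were called in a share near that of all genes, 69.2% of the exchange factors and 62.2% of the activating proteins beside 68.1%.

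In the list of Rab27 and Rab3 effectors all 8 tested genes were called, 6 higher and 2 lower, beside 68.1% called of all genes, and 6 more were not analysed here. Of the 8 genes Myo5c and Rims2 passed the filter through KO only and Sytl4 through WT only, so these 3 had to differ. Myo5c, a myosin V motor on secretory granules, was at 56.7, 60.8 and 53.4 CPM in KO and at 0.117, 0.0517 and 0.0848 CPM in WT (log2 difference 9.05, limma adjusted p = 2.4e-08). Unc13d, the Munc13-4 priming factor that binds Rab27, was at 124, 119 and 105 CPM in KO and at 2.06, 1.97 and 2.37 CPM in WT (log2 difference 5.75, limma adjusted p = 6.7e-09). Rims2, a Rab3-binding scaffold of exocytosis, rose from 0.485 ± 0.067 to 46.2 ± 6.3 CPM. In WT no library of these 3 genes was above 2.37 CPM. The 2 that fell were synaptotagmin-like Rab27 effectors, Sytl2 from 462 ± 35 to 323 ± 64 CPM and Sytl4, named after its values were seen, from 4.21 ± 2.2 to 0.0272 ± 0.027 CPM.

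Of 10 Rab11 and Rab25 effectors 5 were higher, 1 was lower and 4 were not called (median 0.22), so that 6 of 10 were called, beside 68.1% of all genes. Myo5b, the myosin V motor of the apical recycling endosome, was at 86.0, 106 and 89.1 CPM in KO and at 0.703, 2.43 and 0.848 CPM in WT (log2 difference 6.33, limma adjusted p = 2.3e-06). Its KO libraries were all far above its WT libraries, as with Rab25. The Rab11 family-interacting proteins Rab11fip1 and Rab11fip5 rose from 31.4 ± 1.5 to 87.5 ± 9.0 CPM and from 184 ± 11 to 479 ± 51 CPM. Sh3tc2, a Rab11 effector of recycling endosomes, fell from 211 ± 33 to 32.7 ± 5.5 CPM (log2 difference -2.69, limma adjusted p = 1.1e-06).

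Effectors of Rab8, Rab10, Rab13 and Rab35 were 4 higher, 5 lower and 7 not called of 16 (median -0.02), 56.3% called beside 68.1% of all genes. Fscn1, the actin bundler fascin, which Rab35 recruits, fell from 642 ± 96 to 4.45 ± 1.3 CPM (log2 difference -7.19, limma adjusted p = 2.5e-08). Mical1, an actin-oxidising enzyme, fell from 5.11 ± 0.50 to 0.0462 ± 0.043 CPM and Ehbp1l1 from 135 ± 11 to 41.1 ± 2.2 CPM. Mical1 passed the filter through WT only, so it had to differ. The 3 genes named by rule among those that rose, Ocrl, Optn and Map4k2, had log2 differences of 0.42 to 0.72. Effectors of Rab5, Rab4, Rab7 and Rab9 were 5 higher, 6 lower and 8 not called of 19 (median -0.01), 57.9% called beside 68.1%. Rilp, a Rab7 effector that links late endosomes to dynein, fell from 3.21 ± 0.70 to 0.675 ± 0.15 CPM (log2 difference -2.21, limma adjusted p = 9.4e-05). It was named after its values were seen, since it is below 5 CPM. Rilp also passed the filter through WT only and had to differ. The ones named by rule, Rabepk, Plekhm1, Fyco1, Vps8, Osbpl1a and Plekhm2, lay between -0.69 and 0.71.

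Of 10 Rab6 and Rab2 effectors 8 were higher, 1 was lower and 1 was not called, with a median of 0.67. The share called was 90.0%, beside 68.1% of all genes, of which 34.3% were higher. Bicd1, a dynein adaptor for Rab6 vesicles, rose from 6.97 ± 0.59 to 37.6 ± 2.3 CPM (log2 difference 2.43, limma adjusted p = 3.5e-07). Its paralogue Bicd2 and the golgin Golga4 rose from 92.7 ± 8.5 to 165 ± 13 CPM and from 149 ± 4.5 to 275 ± 7.6 CPM. Kif20a, a kinesin of Rab6 and of cell division, fell from 64.2 ± 20 to 4.80 ± 1.5 CPM (log2 difference -3.73). Rab6a itself was not called, at 173 ± 14 CPM in KO and 189 ± 11 CPM in WT, and an opposite-strand transcript covers 19.0% of its exon bases.

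**Figure D4:**
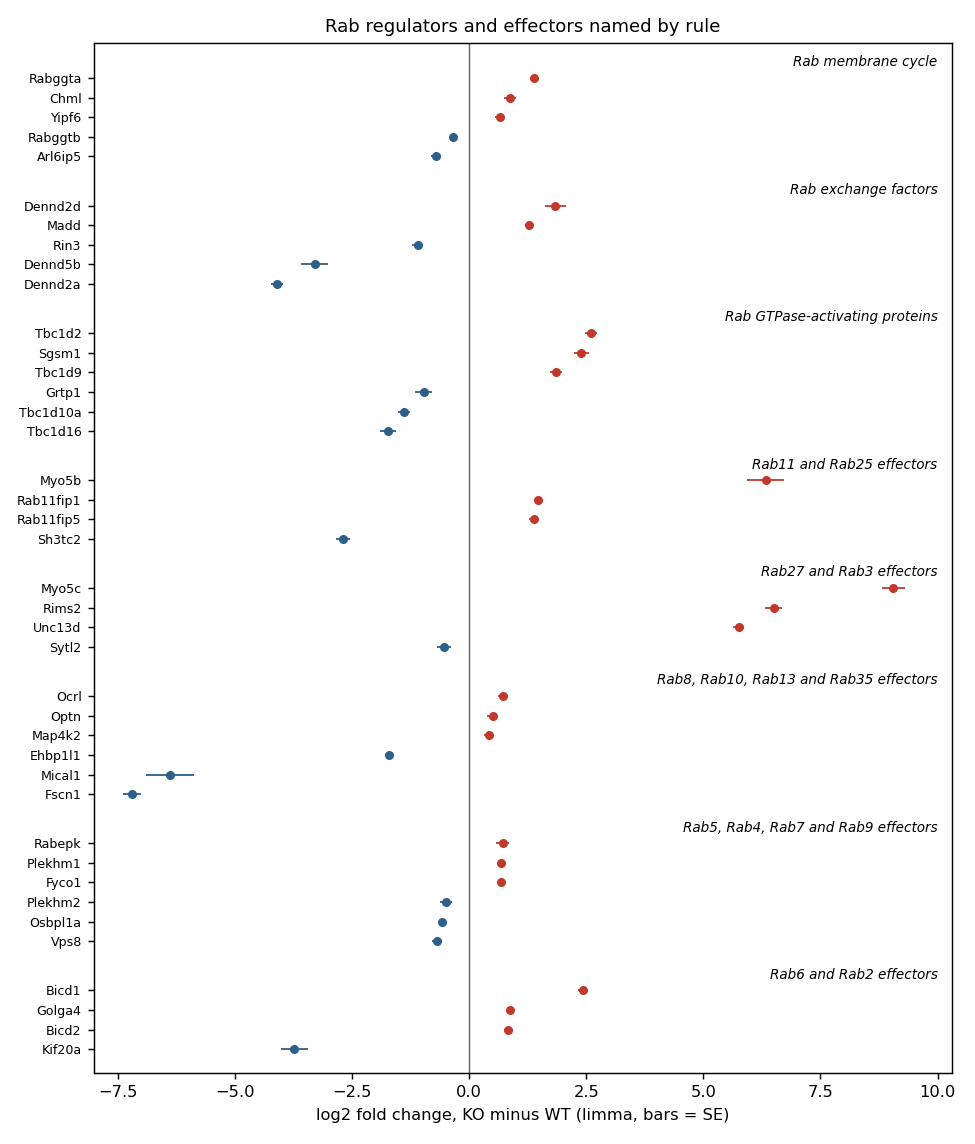
Log2 difference (KO minus WT, horizontal axis) of the regulators and effectors named by rule in 8 lists (Sytl4 and Rilp, named outside the rule, are not plotted), with bars for the standard error of limma's fit; red points were higher in KO and blue points lower. Myo5c at 9.05, Rims2 at 6.50 and Myo5b at 6.33 lie farthest to the right and Fscn1 at -7.19 farthest to the left.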

How the data were processed

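RNA-seq of 3 KO and 3 WT libraries was analysed from the table that the authors deposited, which holds log2 counts-per-million (CPM). Per the labels' protocols, 100 ng of total RNA from an RNeasy kit went into libraries of a kit that keeps strand. Reads were handled with STAR 2.7.3a, Trimmomatic 0.39, edgeR and featureCounts of Subread 1.6.4 on GRCm38, per the submitters' processing notes, which give no order. No source used here gives the annotation, the strand setting, the treatment of reads with several matches, the filter or the prior. The low values of the deposited log2 columns were whole multiples of a step (tolerance 0.001) for 100% of values, which gave reads and CPM without the prior.

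The test took in 12616 of 12803 genes, those above 0 log2 CPM in 3 or more libraries, and used limma 3.58.1 (R 4.3.3; lmFit and eBayes with an intensity trend), KO minus WT, without a block, and adjusted by Benjamini-Hochberg. The script was tested on simulated data. Exon lengths and coordinates were taken from GENCODE M21 (GRCm38) and promoters from RefSeq. CPM per kb divides by merged exon length.

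The members, classes and lists were chosen with earlier results of these data known, so no list was tested. Named regulators and effectors were up to 3 rises and 3 falls per list, largest first, called, without overlap of the groups and with a mean of at least 5 CPM in the higher group. Members named with values in all 6 libraries were called apical and epithelial Rabs with a log2 difference of at least 1, other called Rabs with at least 2, the 3 called housekeeping Rabs with the largest difference and the 3 with the most reads. Values of Rab31, Rab20 and Rab1b were added, and 1 gene that the rule names is not reported here. Alternatives were another offset, filter, scaling, trend, weighting, a replicate block and leaving out each library. The class counts without members that passed through 1 group and the share without Rab25 were added after seeing the data.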

Additional observations from a re-analysis of the deposited data

How the results depend on the processing

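Under the alternatives 18 to 20 Rabs were higher in KO (18 to 20 without 1 library), 13 to 16 were lower (13 to 15 without 1 library), and 7573 to 8743 genes were called in all. On the recovered whole reads limma voom called 8599 genes, with 19 Rabs higher and 15 lower. The median of the apical and epithelial Rabs stayed between -0.08 and -0.01 and that of the housekeeping Rabs between 0.27 and 0.36. Of 711 values of single Rabs under alternatives 697 kept their side of the threshold, 11 lost a call and 3 gained one. The sign differed from that of the reported value in 9 of the 711, all of them in 5 genes that were not called (Rab3a, Rab4a, Rab4b, Rab28 and Rab43), with Rab4b at 0.40 and Rab43 at 0.02 under cyclic loess. The lost calls were those of Rab6b, Rab2b and Rab33b, of which Rab6b reached an adjusted p of 0.145 without WT library 2 and 0.0716 without the intensity trend. Calls were gained by Rab14 without KO library 3 (limma adjusted p = 0.033), Rab43 without WT library 1 (0.043) and Rab23 under cyclic loess scaling (0.049). With an offset of 1 CPM, which lowers the folds of genes near 0 by construction, the log2 difference was 6.27 for Rab25, 3.05 for Rab17, 2.81 for Rab19, -2.88 for Rab3b, -2.72 for Rab7b, -1.43 for Rab40b and 1.01 for Rab15. Cyclic loess gave 7.76 for Rab19, 3.23 for Rab15 and -5.56 for Rab3b. Rab43, Rab4b and Rab15 had no value under the stricter filter.

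With the replicate number as a block 19 Rabs were higher and 14 lower, and 8395 genes were called; Rab6b lost its call (limma adjusted p = 0.062). No pairing by number was evident. Same-numbered libraries correlated in their deviations from the group means at 0.101, 0.0812 and -0.0951, and not every library correlated best with its own number. With 3 libraries per line such correlations cannot exclude a pairing. Levels under 0.1 CPM rest on a few reads per library, and no depth interval covers differences between cultures.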
